A study of Homo sapiens with 3 samples.

Results

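The RUNX and MEF2 genes encode 2 families of transcription factors of blood, bone and muscle cells, and 9 of the 22011 transcript clusters on the arrays were paired with them. The clusters were chosen by name, as all those whose gene symbol, alone or among several, was RUNX1, RUNX2, RUNX3, CBFB, MEF2A, MEF2B, MEF2C or MEF2D. Each of the 8 genes had at least 1 cluster, and MEF2B had 2. Exon arrays of the type Affymetrix Human Exon 1.0 ST were run with RNA of HL (Hodgkin's lymphoma) cells, 1 array for each of the lines L-428, L-540 and HDLM-2. The signal intensities are linear values. Without replicate arrays no test could be made, and every difference between lines is descriptive. According to their descriptions, the HDLM-2 and L-428 samples had received vorinostat, which inhibits histone deacetylases, and the L-540 sample had not, while the methods of the study give no treatment of these arrays. A difference of L-540 from the other lines therefore cannot be told apart from a treatment.

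RUNX proteins bind DNA through their runt domain, together with the partner CBFB, which does not touch DNA itself. RUNX1 is needed for the formation of blood stem cells, RUNX2 directs the formation of bone, and RUNX3 acts in cytotoxic T cells. MEF2 proteins bind DNA through a MADS domain and are held in check by class IIa histone deacetylases, until calcium or stress kinases release them. MEF2C and MEF2B are known for roles in B cells, and MEF2B binds the gene of the germinal center repressor BCL6.

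The reference promoters of the RUNX2 and RUNX3 genes are shown because they share a stretch of letters that holds RUNX motifs. RefSeq windows of 300 bases, from 250 before the transcription start to 49 after it with the start counted as 0, were at hand for 7 of the 8 genes, with 17 windows in all (GRCh38.p14). CBFB had none. The windows of a gene are numbered in the direction of transcription. The first windows of RUNX2, at chr6:45328080-45328379 on the plus strand, and of RUNX3, at chr1:24964961-24965260 on the minus strand, are given 5′ to 3′, with the RUNX motif letters TGTGGT and TGCGGT of either strand in capitals.
RUNX2 window 1: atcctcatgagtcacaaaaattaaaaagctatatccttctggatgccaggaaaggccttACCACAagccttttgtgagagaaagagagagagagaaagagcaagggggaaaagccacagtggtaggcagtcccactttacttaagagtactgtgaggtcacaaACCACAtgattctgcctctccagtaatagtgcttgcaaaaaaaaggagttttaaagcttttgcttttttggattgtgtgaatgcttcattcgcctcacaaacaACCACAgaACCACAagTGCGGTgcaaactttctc
RUNX3 window 1: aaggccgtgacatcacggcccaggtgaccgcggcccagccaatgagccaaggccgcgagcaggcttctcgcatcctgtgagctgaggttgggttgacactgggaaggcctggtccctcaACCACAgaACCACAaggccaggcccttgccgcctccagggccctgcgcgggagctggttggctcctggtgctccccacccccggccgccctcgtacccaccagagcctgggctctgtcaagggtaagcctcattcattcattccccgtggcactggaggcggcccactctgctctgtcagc

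The RUNX2 window held TGTGGT 4 times, each time on the opposite strand as ACCACA, and TGCGGT 1 time. The RUNX3 window held TGTGGT 2 times. The longest run shared by windows of different genes of the families, with 18 bases, was found in these windows and holds a pair of RUNX motifs.
Shared run: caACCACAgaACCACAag
In RUNX2 the run began at position 14 and in RUNX3 at position -133. Of 35116 RefSeq promoter windows, 2 held this run on either strand, those of RUNX2 and RUNX3 (0.0057%). The run was picked from these windows, so both hold it by construction. TGTGGT was found in 2 of the 17 windows of the families and in 13.1% of all windows, and TGCGGT in 1 of the 17 and in 7.29% of all. These shares are descriptions of letters, and no binding was measured.

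The MEF2 consensus was found in the second of 3 windows of MEF2A and in the fifth of 7 windows of MEF2C. These windows lie at chr15:99565734-99566033 on the plus strand and at chr5:88824295-88824594 on the minus strand, and capitals mark the consensus, which reads alike on both strands.
MEF2A window 2: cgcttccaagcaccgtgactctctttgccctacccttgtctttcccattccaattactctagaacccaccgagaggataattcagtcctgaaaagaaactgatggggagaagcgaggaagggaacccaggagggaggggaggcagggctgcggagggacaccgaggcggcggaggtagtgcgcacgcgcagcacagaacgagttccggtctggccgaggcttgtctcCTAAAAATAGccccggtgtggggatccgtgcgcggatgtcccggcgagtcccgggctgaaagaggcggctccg
MEF2C window 5: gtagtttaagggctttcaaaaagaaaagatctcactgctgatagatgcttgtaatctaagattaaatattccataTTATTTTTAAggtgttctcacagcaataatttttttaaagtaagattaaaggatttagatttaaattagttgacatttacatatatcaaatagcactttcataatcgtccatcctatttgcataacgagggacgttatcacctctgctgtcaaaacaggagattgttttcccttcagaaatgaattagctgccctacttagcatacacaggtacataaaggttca

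In MEF2A the consensus lay from position -23 to -14, next to the start, and in MEF2C from -175 to -166. It was present in 2 of the 17 windows of the families and in 2.99% of all windows. It did not overlap with a RUNX motif, as neither of these windows held one.

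**Figure D1:**
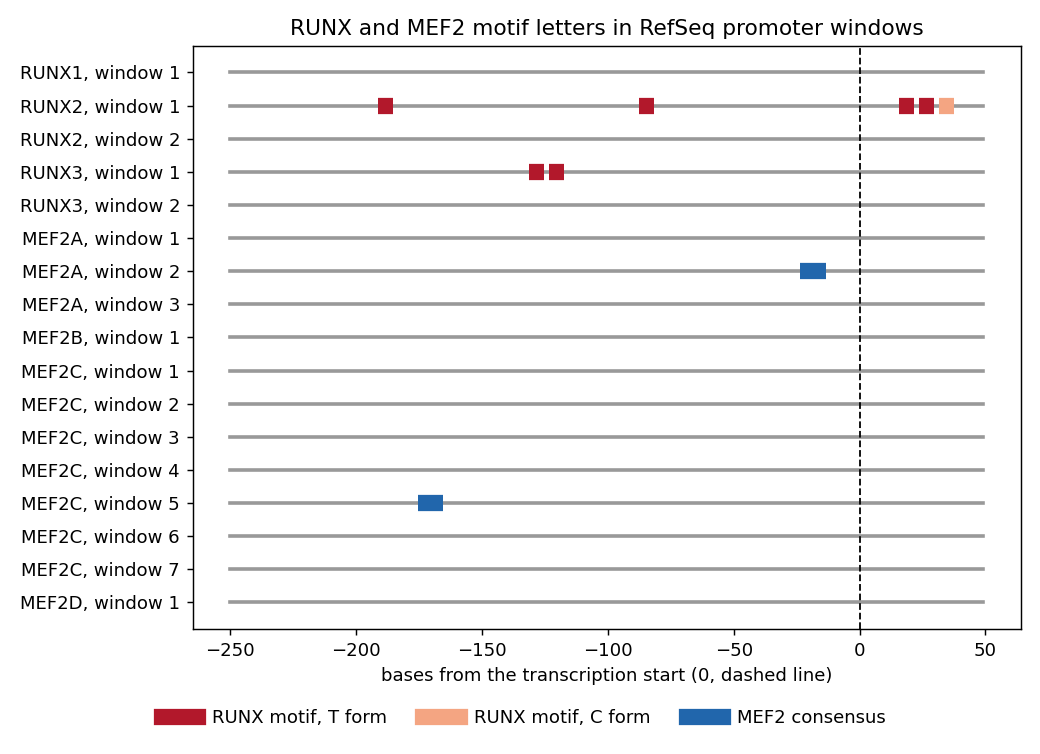
Positions of motif letters in the 17 RefSeq promoter windows of 7 genes, in bases from the transcription start (0, dashed line), with 1 gray line per window. Red marks TGTGGT, light red TGCGGT and blue the MEF2 consensus, on either strand. The RUNX motifs lie in the first windows of RUNX2 and RUNX3, and the MEF2 consensus in 1 window of MEF2A and 1 of MEF2C.

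The study took signal intensities above 100 as expressed, for probe sets of endogenous retroviruses and after processing its own and published arrays together. Here the threshold was applied to transcript clusters. Signals above 100 were found for RUNX2 and MEF2C, and for none of the other 7 clusters. L-540 and L-428 were above 100 for both genes and HDLM-2 for neither, although MEF2C in L-428 was at 94.3 after quantile normalization. In L-540 this was 2 of 9 clusters beside 7.17% of all clusters, and in L-428 it was 2 of 9 beside 10.2%. HDLM-2 had 0 of 9 beside 6.28%. The genes came to attention through earlier results of these data, so these counts are not evidence for the families as groups. RUNX3, with 98.3, and the cluster of MEF2A, with 99.4 in L-540, lay just below the threshold. With one median for all arrays and with quantile normalization, RUNX3 was above it in L-540, at 104 and 108. In HDLM-2 it was above as well, at 108 and 128. The cluster of MEF2A was above 100 in L-540 with these scalings, at 106 and 109.

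**Figure D2:**
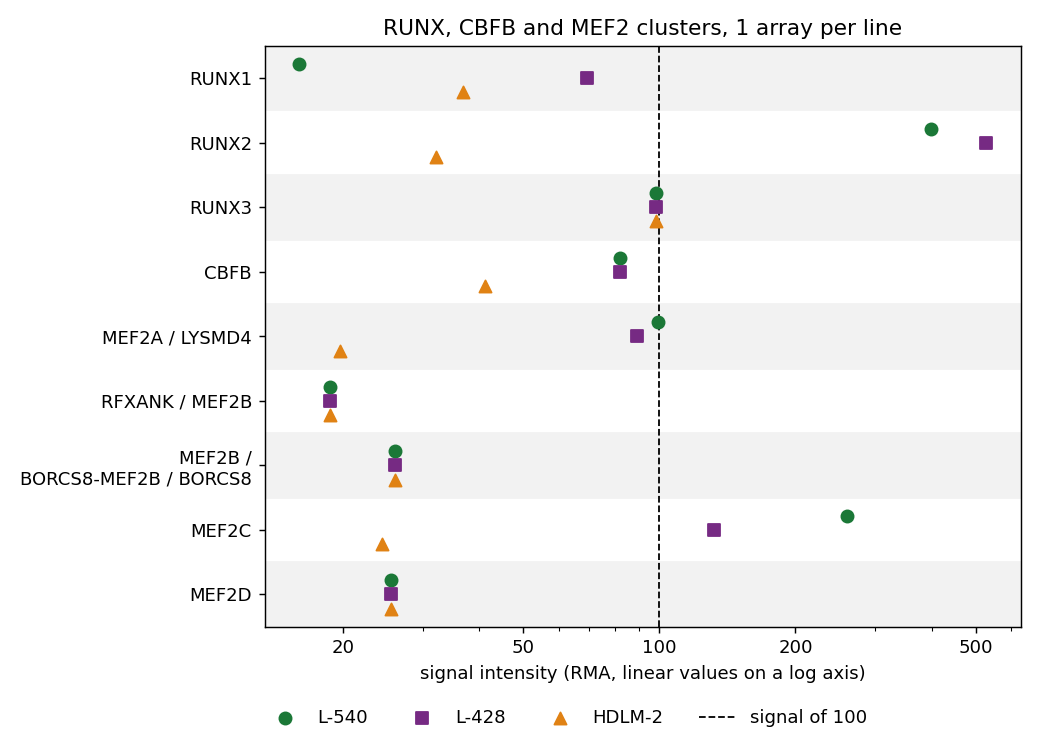
Signal intensity (RMA, linear values on a log axis) of the 9 clusters in L-540, L-428 and HDLM-2, with 1 symbol per array and the threshold of 100 as a dashed line. RUNX2 and MEF2C lie above 100 in L-540 and L-428 and below it in HDLM-2, and 4 clusters have 1 value in all lines.

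The signal of RUNX2 was 398 in L-540 and 528 in L-428, against 32.1 in HDLM-2. HDLM-2 was thus set apart, whereas the other lines were within 1.32-fold of each other. The difference of HDLM-2 was -3.63 on the log2 scale from L-540, or 12.4-fold, and -4.04 from L-428, or 16.4-fold. With quantile normalization the latter was 10.9-fold, and with 50 added to each signal the log2 differences were -2.45 and -2.81. The RUNX2 signal was at the 97.5th percentile of all clusters in L-540 and at the 97.6th for L-428, but at the 83.3rd in HDLM-2.

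RUNX1 had 16.0 in L-540, whereas L-428 had 69.1 and HDLM-2 had 36.9, in an order that differs from that of RUNX2. L-428 was 4.32-fold above L-540, but with all values below 100 this was not counted as a difference. It was also under 4-fold with one median for all arrays, at 3.49-fold, and with quantile normalization, at 2.92-fold. With 50 added to each signal, the log2 difference of L-428 from L-540 was 0.85. A separate cluster of RUNX1-IT1, a transcript from within the RUNX1 gene, had 6.21 in L-540 and 18.1 in L-428, against 5.18 in HDLM-2. Its highest signal was also in L-428, with a log2 difference of 1.54 from L-540, while in HDLM-2 it was not above L-540.

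RUNX3 had 98.3 in each of the 3 lines. The value occurred in no other cluster on any of the arrays. Such identical values were found in 31.5% of all clusters and are not read as equal expression. They were less frequent at higher signals, with 8.09% of the clusters with a mean signal above 50 and up to 100. Values identical in only a pair of lines, as for some genes below, are not read as equal expression either.

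CBFB, which encodes the common partner of the RUNX proteins, had 81.8 in L-540 and 81.8 in L-428, against 41.3 in HDLM-2. Its signal in HDLM-2 was 1.98-fold below that of the other lines, a smaller difference than that of RUNX2. With quantile normalization it was 1.74-fold below L-540 but only 1.15-fold below L-428. How the ratio of CBFB to RUNX proteins differed cannot be taken from these signals, since the probes of each cluster respond differently.

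The signal of MEF2C was 260 in L-540 and 132 in L-428, against 24.4 in HDLM-2. The lines were in a graded order, with L-428 1.97-fold below L-540 and HDLM-2 below both. The log2 difference of HDLM-2 was -3.42 from L-540, or 10.7-fold, and -2.44 from L-428, or 5.43-fold. The difference from L-428 was under 4-fold with 50 added to each signal, at -1.29, and with quantile normalization, at -1.68, while that from L-540 was -2.06 and -3.23. In HDLM-2 the signal was at the 78.9th percentile of all clusters, against the 96.6th in L-540 and the 91.9th in L-428.

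The cluster of MEF2A also carries the name of its neighbor LYSMD4, and had 99.4 in L-540 and 89.5 in L-428, against 19.7 in HDLM-2. HDLM-2 was again the lowest, 5.04-fold below L-540 and 4.54-fold below L-428. The difference from L-428 was under 4-fold with one median for all arrays, at 3.54-fold, and with quantile normalization, at 2.75-fold. With 50 added to each signal, the log2 difference from L-540 was -1.10. As no value was above 100, it was not counted as a difference. LYSMD4, a gene of a LysM domain protein, had a cluster of its own with 6.21 in all lines, and the shared cluster cannot be assigned to 1 of the genes.

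MEF2D had 25.6 in each line. MEF2B had no cluster of its own. The cluster shared with RFXANK, which encodes a regulator of HLA class II genes, had 18.7 in each line, a value also held by 82 other clusters on the array of L-540, 53 on that of L-428 and 42 on that of HDLM-2. The cluster shared with BORCS8 and their read-through transcript had 26.1 in each line, as did 38, 12 and 19 other clusters in the same order. These values repeated across clusters are not read as a measured level of MEF2B. In all, 4 of the 9 clusters of the families had 1 value in all lines.

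**Figure D3:**
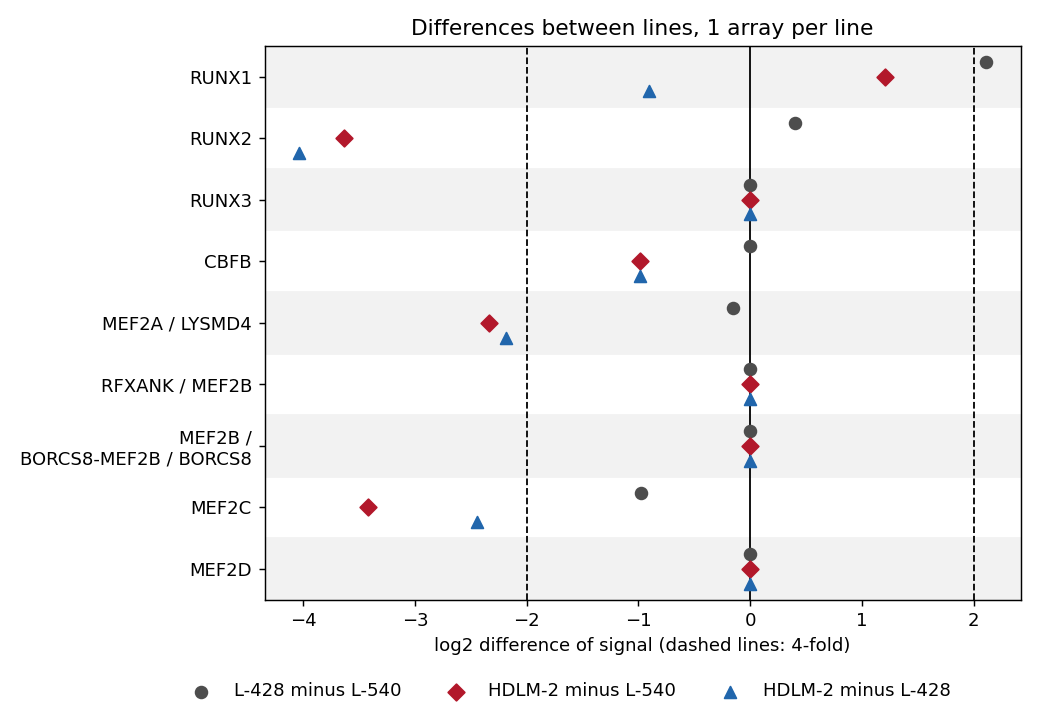
Log2 differences of the signal between the lines for the 9 clusters, with 1 symbol per pair of lines and dashed lines at 4-fold. HDLM-2 lies beyond 4-fold below both other lines for RUNX2, MEF2C and the cluster of MEF2A, and the latter had no value above 100.

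A difference was counted if it reached 4-fold and the brighter array was above 100. By this rule, RUNX2 and MEF2C were lower in HDLM-2 than in L-540, 2 of 9 clusters against 0.586% of all clusters. The same genes were lower in HDLM-2 than in L-428, 2 of 9 against 2.93%, but only RUNX2 was left with 50 added to each signal, with quantile normalization, at 8-fold and at a threshold of 200. These comparisons share the HDLM-2 array and are not independent. All clusters include 5171 unnamed ones, and whether those stand for separate genes was not tested. Of genes with a cluster of their own, 0.358% were lower in HDLM-2 than in L-540 and 2% lower than in L-428. None of the 9 was higher in HDLM-2 than in L-540, against 0.273% of all clusters, or higher than in L-428, against 0.427%. Between L-428 and L-540, 0 of 9 differed in either direction, against 2.04% of all clusters higher and 0.472% lower in L-428. HDLM-2 had the lowest signal without a tie in 4 of the 9 clusters, those of RUNX2, CBFB, MEF2A and MEF2C, and in 23.5% of all clusters.

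A signal above 100 in both other lines and a value in HDLM-2 at least 4-fold below both was found for 78 clusters (0.354%), of which 18 carry 1 gene name, 2 carry several and 58 are unnamed here. Many of the unnamed clusters have closely spaced identifiers on the array, and whether they stand for separate genes was not tested. In the order of the distance to the nearer line, RUNX2 was at place 14 of the 78. It was at place 2 of the 18 with 1 gene. MEF2C was at place 48 and at place 10 in the same orders. The others include NFKBIA, the inhibitor of NF-kappaB, IRF2, an interferon regulatory factor, and LDHB, a lactate dehydrogenase subunit.

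**Figure D4:**
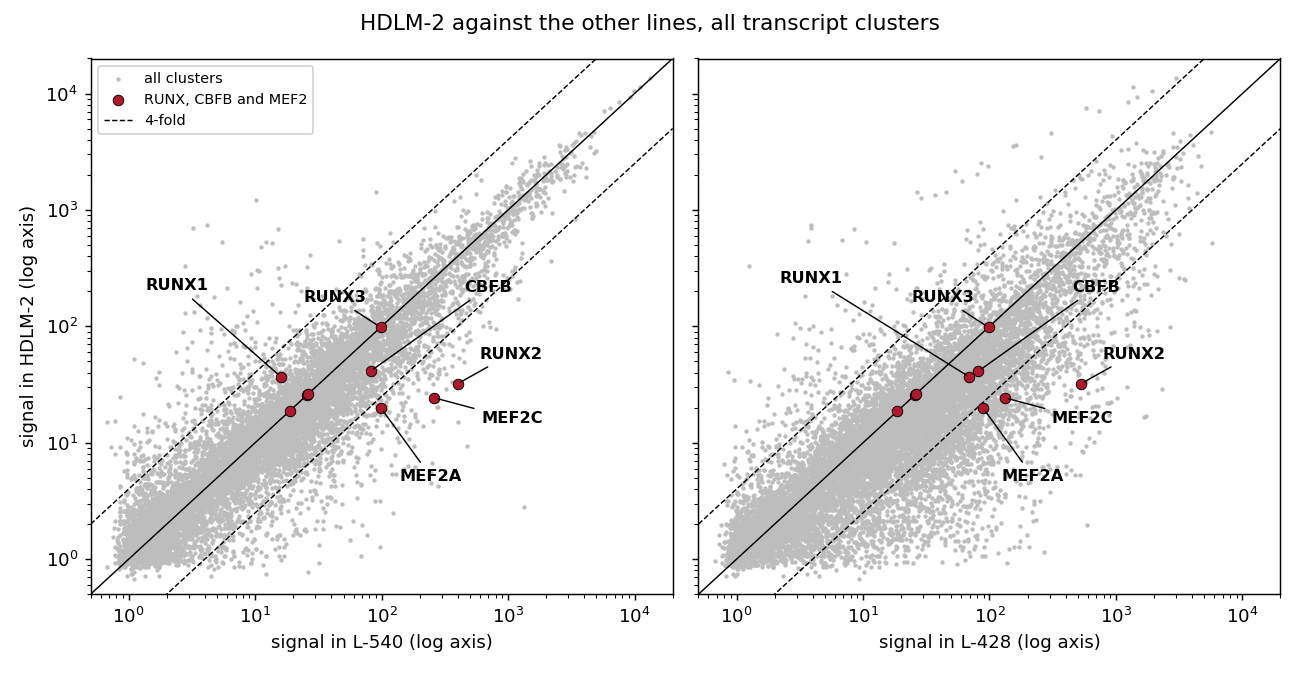
Signal in HDLM-2 against L-540 (left) and L-428 (right) for all 22011 clusters (gray) and the 9 RUNX, CBFB and MEF2 clusters (red), on log axes, with a solid line at equal signal and dashed lines at 4-fold. RUNX2, MEF2C and MEF2A lie below the lower dashed line in both panels, and the other named genes lie within 4-fold.

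The genes with the pattern most like that of RUNX2 were sought among 1127 genes above 100 in at least 1 line, by the distance between the 3 log2 signals, each centered on the mean of its gene. They were DDX5 with a distance of 0.45, NFKBIA with 0.46 and POLR2B with 0.71. DDX5, an RNA helicase, had 85.8 in L-540 and 140 in L-428, against 10.8 in HDLM-2. POLR2B, a subunit of RNA polymerase II, had 45.3, 107 and 6.80 in the same order. The low signal of these genes in HDLM-2 follows from how they were chosen. NFKBIA had 130 in L-540 and 194 in L-428, against 16.1 in HDLM-2.

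The genes most like MEF2C were TRAF3IP3 with a distance of 0.25, NCF4 with 0.26 and MDM2 with 0.39. TRAF3IP3, which encodes a protein that binds TRAF3, had 136 in L-540 and 58.0 in L-428, against 13.4 in HDLM-2. NCF4, a subunit of the phagocyte NADPH oxidase, had 191, 108 and 15.4 in this order. MDM2, the ubiquitin ligase of p53, had 135, 67.8 and 17.5. Within the families, the distance of MEF2C from the cluster of MEF2A was 0.80 and from RUNX2 1.23. With 3 arrays, a similar pattern describes 3 values and nothing about shared control.

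Among the cofactors of RUNX proteins, 14 of 17 listed genes had a cluster of their own, and 3 of them were above 100 in at least 1 line. HIPK1, a kinase that phosphorylates RUNX1, had 67.8 in L-540, whereas L-428 had 362 and HDLM-2 had 67.8, with L-428 higher than both by 2.42 on the log2 scale. It was the only listed cofactor that differed by the 4-fold rule, and it was under 4-fold from both with 50 added to each signal, at 1.81, and with quantile normalization, where L-428 was higher by 1.89 than L-540 and HDLM-2 was at -1.70 from L-428. HIPK2, a related kinase, had 273, 177 and 161 in L-540, L-428 and HDLM-2, and CDK6, a cell cycle kinase that binds RUNX1, had 101, 236 and 115. The median log2 difference of the 14 genes was 0.44 in L-428 and 0 in HDLM-2, each relative to L-540, and -0.29 in HDLM-2 relative to L-428. Over all 14232 genes with a cluster of their own the median was 0 in each pair. Identical values were held by 6884 of them in L-428 and L-540, 7566 in HDLM-2 and L-540, and 6414 in HDLM-2 and L-428. A median of 0 is set by such ties and is not read as equal expression. By the 4-fold rule, 1.5% of the 14232 genes were higher and 0.323% lower in L-428 than in L-540. In HDLM-2, 0.302% were higher and 0.358% lower than in L-540, and 0.309% were higher and 2% lower than in L-428. Of the same genes, 4% were above 100 in L-540, 6.72% for L-428 and 3.5% for HDLM-2. In at least 1 line, 1128 of the 14232 genes were above 100, to be set beside such counts of each list. Of the corepressors TLE1 to TLE4 none was above 46.1, and RUNX1T1, known from its fusion with RUNX1 in leukemia, was at 1.62 or less.

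None of the 18 measured regulators of MEF2 proteins, of 20 listed, was above 100 in any line, and none differed by the 4-fold rule. The class IIa histone deacetylases HDAC4, HDAC5, HDAC7 and HDAC9 lay between 2.33 and 32.1. PPP3CA, a catalytic subunit of the phosphatase calcineurin, had 55.3 in L-540 and 79.3 in L-428, against 29.4 in HDLM-2. PPP3CC, another catalytic subunit, had 23.8, 50.2 and 23.8 in this order. CAMK4, a calcium-dependent kinase that activates MEF2, had 3.65, 72.6 and 19.4. The median log2 difference of this list was 0 in each pair of lines, which ties set. Of the 18 genes, 9 were identical in L-428 and L-540, 13 in HDLM-2 and L-540, and 8 in HDLM-2 and L-428.

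Of the known RUNX targets, 13 of 15 had a cluster of their own and 1 was above 100. The list states neither which RUNX protein acts on a gene nor in which direction. No order of the lines was therefore predicted for its genes. PRF1, which encodes the pore protein of cytotoxic cells, had 103 in L-540, whereas L-428 had 8.34 and HDLM-2 had 113. L-428 was set apart, with a log2 difference of -3.62 from L-540, and HDLM-2 and L-540 were close together. With 50 added to each signal this difference was -1.39, under 4-fold, while it was -3.93 with one median and -3.95 with quantile normalization. HDLM-2 was higher than L-428 by 3.76, or by 1.48 with 50 added to each signal. CSF1R, the receptor gene of macrophage colony-stimulating factor, had 5.48 in each line, which is not read as equal expression. The study cites earlier work in which reactivated endogenous retroviruses drive this gene in HL cells. Transcripts from such an alternative promoter were not looked for here, and 1 value per cluster does not separate them. The targets other than PRF1 were at 27.0 or less. The median log2 difference of the list was 0 in each pair, which ties set. Of the 13 genes, 7 were identical in L-428 and L-540, 10 in HDLM-2 and L-540, and 7 in HDLM-2 and L-428. Of the 10 known MEF2 targets, all measured, none was above 100. KLF2, a zinc finger factor of lymphocytes, had 41.4 in L-540, 30.5 for L-428 and 41.4 for HDLM-2, and JUN had 48.5 in each. BCL6 had 16.4, 16.4 and 28.1, and IRF8, a regulator of myeloid and B cells, had 6.94, 58.4 and 7.51. The median log2 difference of these targets was 0 in each pair, again set by ties. In the same order of pairs, 7, 8 and 6 of the 10 genes were identical.

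**Figure D5:**
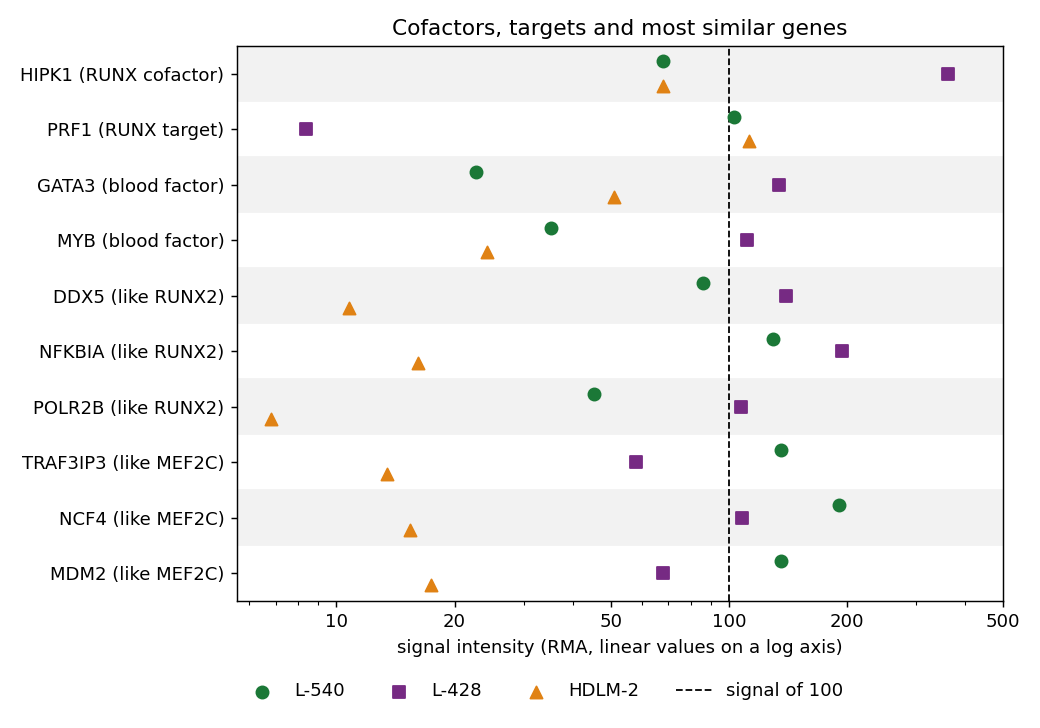
Signal intensity (RMA, linear values on a log axis) in L-540, L-428 and HDLM-2 of the listed cofactors, targets and blood transcription factors that differed by the 4-fold rule and of the 3 genes most like RUNX2 and MEF2C each, with 1 symbol per array and a dashed line at 100. The 6 genes like RUNX2 or MEF2C have their lowest signal in HDLM-2, whereas PRF1 has it in L-428.

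Of 20 measured transcription factors of blood cells, of 21 listed, 5 were above 100 in at least 1 line. GATA3, a factor of T helper cells, had 22.7 in L-540, whereas L-428 had 134 and HDLM-2 had 51.0, and was 4-fold higher in L-428 than in L-540. MYB, a factor of blood progenitors, had 35.2, 111 and 24.2, and was 4-fold lower in HDLM-2 than in L-428. Neither call was kept with 50 added to each signal, at 1.34 for GATA3 and -1.12 for MYB, or with quantile normalization, at 1.94 and -1.44, and that of MYB was also lost with one median, at -1.84. GATA3 and RUNX1 had the same order of lines. ETV6, an ETS repressor, had 54.2, 87.7 and 177, with its highest signal in HDLM-2. IKZF1, which encodes Ikaros, had 100.1, 164 and 132, and TCF3, an E protein, had 114, 65.0 and 65.0. The median log2 difference of this list was 0 in each pair of lines, as over all genes, and was set by ties. Of the 20 genes, 8 were identical in L-428 and L-540, 10 in HDLM-2 and L-540, and 9 in HDLM-2 and L-428.

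Of 10 HL cell markers, all measured, 8 were above 100 in at least 1 line. The 10 had summed signals of 1146 in L-540, whereas L-428 had 3294 and HDLM-2 had 2592. TNFRSF8 (CD30) had 158 in L-540, 145 for L-428 and 158 for HDLM-2. Its values in L-540 and HDLM-2 were identical, which is not read as equal expression. Some other HL markers were far apart. The chemokine genes CCL22 and CCL17 were highest in HDLM-2, CCL22 with 12.2, 10.6 and 535 and CCL17 with 20.9, 79.3 and 233 in L-540, L-428 and HDLM-2, as was the cytokine gene IL13 with 3.30, 24.8 and 133. FSCN1, which encodes the actin-bundling fascin, was highest in L-428 with 217, 2075 and 697, as was TRAF1, an adapter of TNF receptors, with 18.6, 116 and 31.5. The 9 measured B cell markers of 10 had summed signals of 33.9 in L-540, whereas L-428 had 39.2 and HDLM-2 had 39.7, and the 9 T cell markers of 10 had 32.7, 28.7 and 32.4. The 7 myeloid markers of 10 had 32.9, 26.5 and 32.9, and the 6 red cell and platelet markers of 10 had 47.7, 32.2 and 54.7. The highest single values in these lists were 8.83, 6.66, 10.2 and 35.0 in the same order, and none was at 0. Ties were frequent in these lists, and differences between the sums are not read as differences in expression. Of the 9 B cell markers, 8 were identical in each pair of lines. Only MS4A1 differed, with 3.03, 8.38 and 8.83 in L-540, L-428 and HDLM-2. Between L-428 and L-540, 7 of the 9 T cell markers and 4 of the 7 myeloid markers were identical. The markers of other cells did not exceed 100 in any line, and their part in the differences of RUNX2 and MEF2C was not tested. Over all clusters, the median signal was 7.41 in L-540 and 9.18 in L-428, against 7.16 in HDLM-2.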

How the data were processed

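RNA of 3 HL cell lines was hybridized to exon arrays, 1 per line, and no replicate error can be given. The deposited values are signal intensities of transcript clusters on the linear scale, which the authors made with RMA in Affymetrix Expression Console; the submitters' processing notes name the build hg18. This method subtracts background, aligns the distributions of the arrays and combines probes into 1 value per cluster. The deposited distributions still differed, with highest signals of 13263 in L-540, 5776 for L-428 and 13700 for HDLM-2. Clusters were named through the platform annotation, with 14432 paired with 1 gene, 2408 with several and 5171 unnamed here. Current symbols came from RefSeq (GRCh38.p14) by Entrez identifier for 14404 of the 14432. The lists used 1 cluster for each of 14232 genes, the brightest on average.

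Signals were used as deposited. A difference was counted at 4-fold with the higher value above 100. The genes named are all members, listed genes that differ by this rule or, in lists without any, the 2 with the highest mean, and the 3 genes most like each member that differs. CDK6, HIPK2, CAMK4, CSF1R, BCL6, IRF8, ETV6, IKZF1, TCF3, TLE1 to TLE4, RUNX1T1, TNFRSF8, the class IIa histone deacetylases, IRF2 and LDHB were named after their values were seen. The same holds for IRF4, CD40, CD70 and MS4A1. The 2 highest of the marker lists without a difference were given only within their lists. Members and lists were chosen with earlier results of these data known. No p-value was computed, and the number of arrays limits the precision. The counting, the distances and the scaling were tested on simulated data. Alternatives were thresholds of 50 and 200, folds of 2 and 8, adding 50 before taking logarithms, no filter, scaling to one median, quantile normalization and only clusters with 1 gene. Scripts ran in Python 3.11.15 with pandas 2.3.3, numpy 2.4.6 and matplotlib 3.10.9.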

Additional observations from a re-analysis of the deposited data

How the results depend on the processing

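The log2 differences of the 9 clusters were recomputed after adding 50 to each signal (the offset), after scaling to one median and after quantile normalization. None changed sign, but the 13 differences of 0 became nonzero with both scalings, by up to 0.36 with one median and 0.85 with quantile normalization. These scalings moved the median over all clusters to -0.31 and -0.19 for L-428 minus L-540 and to 0.36 and 0.20 for HDLM-2 minus L-428. In HDLM-2, RUNX2 stayed over 4-fold below both L-540 and L-428 with each of the 3. MEF2C was not past 4-fold against L-428 with the offset, at -1.29, or with quantile normalization, at -1.68, and the cluster of MEF2A passed the rule against L-540 with one median, at -2.29, and with quantile normalization, at -2.23.

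Clusters above the threshold numbered 5, 6 and 1 in L-540, L-428 and HDLM-2 at 50, and 1 in L-428 at 200. They numbered 4 in L-540 and 1 in HDLM-2 with one median, and 4, 1 and 1 with quantile normalization. Clusters lower in HDLM-2 than in L-428 numbered 1 at a threshold of 200, at 8-fold, with the offset and with quantile normalization. RUNX1 made 1 cluster higher in L-428 than in L-540 at a threshold of 50 and with no filter. Over the RUNX and MEF2 cofactors, regulators and targets and the blood transcription factors together, 2 genes were higher and 1 lower in L-428 than in L-540, and 1 was higher and 2 were lower in HDLM-2 than in L-428. Each of these counts was 0 with the offset, the genes higher in L-428 than in L-540 and those lower in HDLM-2 than in L-428 were 0 with quantile normalization, and the latter were 1 with one median. The other 65 of 87 recomputed counts stayed within 1.5 times. The offset shrinks log2 differences between low values by construction, and what caused the remaining changes was not tested. In each line the array stands alone. No paired analysis was possible because a line had only 1 array.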

Other observations

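Genes next to the members on the chromosomes were looked at after the results were seen, as the 3 protein-coding genes on each side in the RefSeq order. Of 48 such neighbors, 34 had a cluster of their own, and 1 differed by the 4-fold rule between any lines. This was CLIC4, a chloride channel protein gene beside RUNX3, with 46.2 in L-540 and 210 in L-428, against 24.2 in HDLM-2, while RUNX3 had 1 value in all lines. Over all 14232 genes, the rule called between 0.302% and 2% in each direction of each pair, and the share for any pair was not computed. The count of neighbors is therefore not read as a result about these loci. Around RUNX2, 5 of 6 neighbors were measured. CDC5L, a splicing factor gene, had 27.2, 53.2 and 9.29 in L-540, L-428 and HDLM-2, the same order as RUNX2, whereas SUPT3H, which adjoins RUNX2, had 5.65, 6.96 and 5.65. Around MEF2C, 5 of 6 were measured, with signals of 33.2 or less. TMEM161B had 7.07, 33.2 and 8.84, with its highest value in L-428, in contrast to MEF2C with its highest in L-540.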
